A study of Mus musculus with 26 samples.

Results

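Igkv segments are the variable (V) gene segments of the mouse kappa light chain locus. All 162 rows of the RNA count table whose symbol begins with Igkv were taken, out of 23762 rows. They lie on chromosome 6 in the RefSeq annotation and fall into 20 subgroups, the subgroup being the number before the hyphen in the name. RefSeq lists 102 of them as functional V segments and 60 as pseudogenes. Of the 162, 146 had at least 1 count in the 18 libraries, and the 16 that had none were all pseudogenes. In total 118 passed the filter on low counts, 100 functional and 18 pseudogenes. The 44 that did not comprised 2 functional segments and 42 pseudogenes, and 28 of the 44 had a count.

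The kappa light chain pairs with the heavy chain to form the antibody, and its variable part is put together in small pre-B cells of the bone marrow. There the Rag1 and Rag2 recombinase joins 1 of the V segments to 1 of the joining (J) segments that lie between the V segments and the constant part. A V segment can be transcribed before it is joined (germline transcript) and, once joined, as part of the light chain messenger RNA. Interleukin 7 (IL-7) is known to keep early B-lineage cells dividing and to hold back kappa recombination, and CXCR4 is the receptor of the chemokine CXCL12. A count on a V segment can come from either transcript, and the counts do not tell the transcripts apart.

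The study asked how CXCR4 signalling bears on kappa recombination, with RNA-seq of 18 libraries in 9 groups of 2. Sorted small pre-B cells were wild type or CXCR4-/-. Pre-B cell cultures with no deletion in their labels were kept with IL-7, without IL-7, without IL-7 but with CXCL12, with IL-7 and CXCL12, or without IL-7 but with CXCL12 and ERK inhibitor II, a compound that by its name blocks the kinase ERK. Cultures labelled CXCR4-/- were kept without IL-7, with or without CXCL12. The source labels call the CXCR4-/- cultures small pre-B and the other cultures pre-B, so the deletion and the labelled cell stage cannot be told apart between them. For 2 libraries the names differ on this: the title of replicate 2 without IL-7, and the count column of replicate 2 without IL-7 with CXCL12, say small pre-B where the source label says pre-B. How the deletion was made, the age of the mice and the doses are not given in the labels used here. Nothing in the labels says that the 2 libraries of a group came from separate mice or cultures. A p-value here measures only how far these libraries spread, and that spread may be technical. Below, paired values are replicate 1 and replicate 2, and levels are CPM (counts scaled to the size of the library, with TMM factors). They are not per length, so a share of a segment is a share of Igkv counts, not of molecules.

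Library totals ran from 17257914 to 50235192 counts. Among the sorted libraries Cxcr4 was at 943 and 922 CPM in the wild-type pair, while the pair labelled CXCR4-/- had 37.2 and 409 CPM. In the 4 cultures labelled CXCR4-/- it was at 114 to 137 CPM, against 112 to 322 CPM in the other 10 cultures. Which exons are deleted is not given in the labels, so a count over the whole gene does not check them. The labels do not account for the gap within the sorted CXCR4-/- pair either. Whether both of these libraries lack CXCR4 to the same degree was not tested, and the sorted comparison rests on this pair. Gapdh, a glycolytic enzyme gene, was at 1.05 to 12.3 CPM in 14 libraries and at 1399 to 1729.8 CPM in the cultures with IL-7 and CXCL12 and with the ERK inhibitor. Those 4 libraries are therefore tested here against each other alone. Their levels and shares are also printed beside those of the other libraries, as descriptions, and what the Gapdh difference does to them was not tested. The replicates of the CXCR4-/- culture without IL-7 differed most, with a chi-square of 250.5 per degree of freedom over all genes against 1.34 to 42.6 in the other groups. The B-lineage marker Cd79a, a signalling subunit of the B cell receptor, was at 465 to 1317 CPM in every library. It belongs to a list of 10 small pre-B and B-lineage markers, whose sum ran from 4059 to 10361 CPM over the libraries.

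Summed over all 162 segments, Igkv transcripts ranged 49.5-fold between the highest and the lowest group mean. They were highest in sorted wild-type cells, at 1359 and 1328 CPM (mean 1344 ± 21.8 SD, n = 2). The next levels were 286 and 297 CPM without IL-7 with CXCL12 (291.5 ± 8.12) and 214 and 275 CPM in sorted CXCR4-/- cells (244.5 ± 43.0). The ranges of these latter groups did not overlap, but their distance was within 2 SD of the sorted CXCR4-/- pair. Then came cultures lacking both IL-7 and CXCL12, with 86.7 and 87.0 CPM (86.8 ± 0.222). With IL-7 alone the sum was 50.9 and 48.4 CPM (49.6 ± 1.74). The CXCR4-/- cultures came last and overlapped, at 23.3 and 32.7 CPM (28.0 ± 6.65) without and at 26.4 and 27.9 CPM (27.2 ± 1.03) with CXCL12. The 4 Gapdh-high libraries, left out of this order, had 124 and 125 CPM with the ERK inhibitor (124.2 ± 0.481) and 120.3 and 111 CPM with IL-7 and CXCL12 (115.9 ± 6.30). In these bulk libraries fewer cells of a type and less RNA per cell cannot be told apart. The depth behind the sums fell with them, from 26890 Igkv counts in a wild-type library to 556 to 638 in the 4 CXCR4-/- culture libraries. The sum is given without a test.

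**Figure D1:**
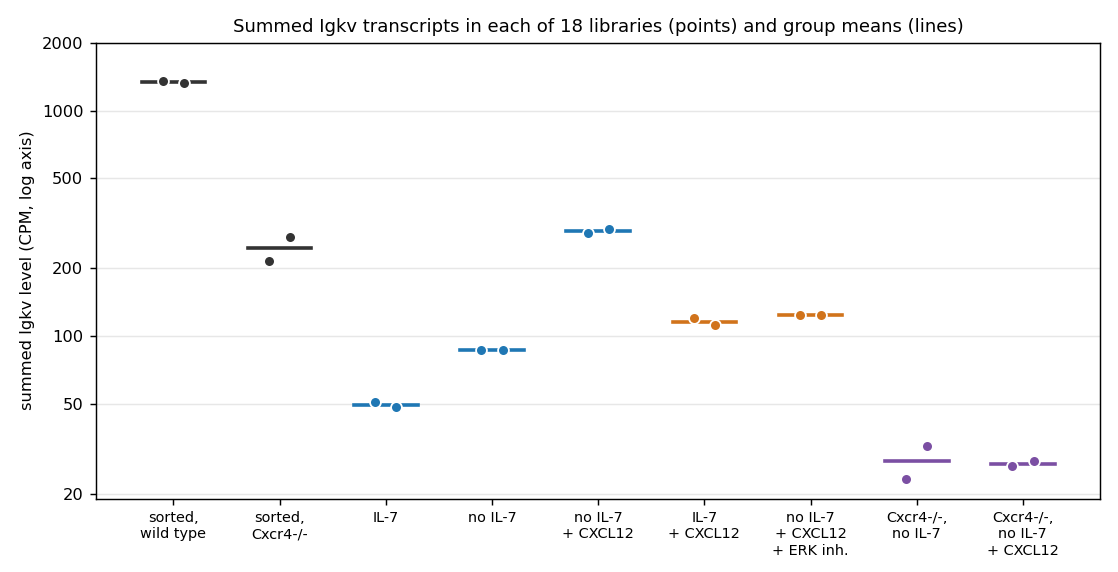
Summed Igkv level (CPM, log axis) in each of 18 libraries, with points for libraries and lines for the means of 2; colours mark sorted cells, cultures with no deletion in their labels, the 4 Gapdh-high libraries and the CXCR4-/- cultures. Sorted wild-type cells stand at a mean of 1344 CPM, and within the blue cultures the mean is 49.6 CPM with IL-7, 86.8 CPM without it and 291.5 CPM without it with CXCL12.

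The number of segments that carried the sum also differed. The effective number of segments (the inverse Simpson index) is the number of equally used segments that would be as concentrated. Sorted wild-type cells had 49.6 and 50.7, sorted CXCR4-/- cells 39.8 and 42.0. In culture it was 15.4 and 16.0 with IL-7, then 28.7 and 29.7 once IL-7 was absent, and 40.7 and 41.6 when CXCL12 was added in its absence. With IL-7 a single segment, Igkv14-111, made up 22.1% and 21.2% of Igkv counts. Its share was 12.1% and 11.2% in the absence of IL-7, where it was still first, and 2.23% and 2.15% with CXCL12 added. Without that segment, which was singled out after its values were seen, the effective number was 37.7 and 35.6 with IL-7, 38.3 and 37.5 when it was absent, and 39.7 and 40.6 in its absence with CXCL12. The leading segments of the other groups were kept, so these values do not compare the groups on equal terms. They show only how far the low number with IL-7 depended on Igkv14-111. In the CXCR4-/- cultures the number was 21.4 and 33.8 without CXCL12 and 20.9 and 20.1 with it. At 556 Igkv counts, the fewest of any library, 72 to 96.2 segments would be seen in a library.

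Other groups had other leading segments. In sorted wild-type cells Igkv19-93 (4.73% and 4.36%) was first in replicate 1 and Igkv6-15 (4.24% and 4.47%) in replicate 2. Igkv1-135 led in sorted CXCR4-/- cells (9.70% and 8.74%) and without IL-7 with CXCL12 (8.75% and 8.72%). Igkv1-110 (7.26% and 7.29%) led with IL-7 and CXCL12, and Igkv10-96 (8.34% and 8.99%) with the ERK inhibitor. Igkv3-2 led in the CXCR4-/- cultures without CXCL12 (12.1% and 7.05%), and Igkv14-111 in those with it (14.9% and 16.4%). As a measure of likeness, the smaller share of each segment was summed over all segments, so that 100% means equal usage. It was 96.2% between the wild-type replicates and 81.6% between the sorted CXCR4-/- replicates, which were less alike. Sorted wild-type usage overlapped by 54.4% to 56.7% with cultures in IL-7, 62.8% to 63.8% with cultures without IL-7 and 69.5% to 69.8% with cultures without IL-7 with CXCL12. The latter overlapped by 75.6% to 78.5% with sorted CXCR4-/- cells. Libraries differ in depth, which lowers the overlap of shallow ones.

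Subgroups showed the same unevenness. The Igkv1 subgroup, with 13 members, took 11.3% and 11.1% of Igkv counts in wild-type sorted cells, against 20.4% and 21.4% in CXCR4-/- ones. The Igkv4 subgroup, the largest with 33 members, took 14.7% and 15.3% in sorted wild-type cells and 4.58% to 8.46% in the 6 cultures kept with IL-7, without it, or without it with CXCL12 (no deletion label, no inhibitor). The Igkv14 subgroup took 24.1% in both libraries with IL-7. Its share was 14.7% and 14.0% once IL-7 was absent, and 4.35% and 4.33% with CXCL12 added. The Igkv3 subgroup took 29.8% and 20.8% in the CXCR4-/- cultures without and 22.9% and 19.4% in those with CXCL12, against 5.48% to 12.4% in the other 14 libraries. The Igkv10 subgroup reached 9.28% to 12.1% in the 4 Gapdh-high libraries and 1.54% to 3.97% in the other 14. These shares are descriptions, and no test was run on them.

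**Figure D2:**
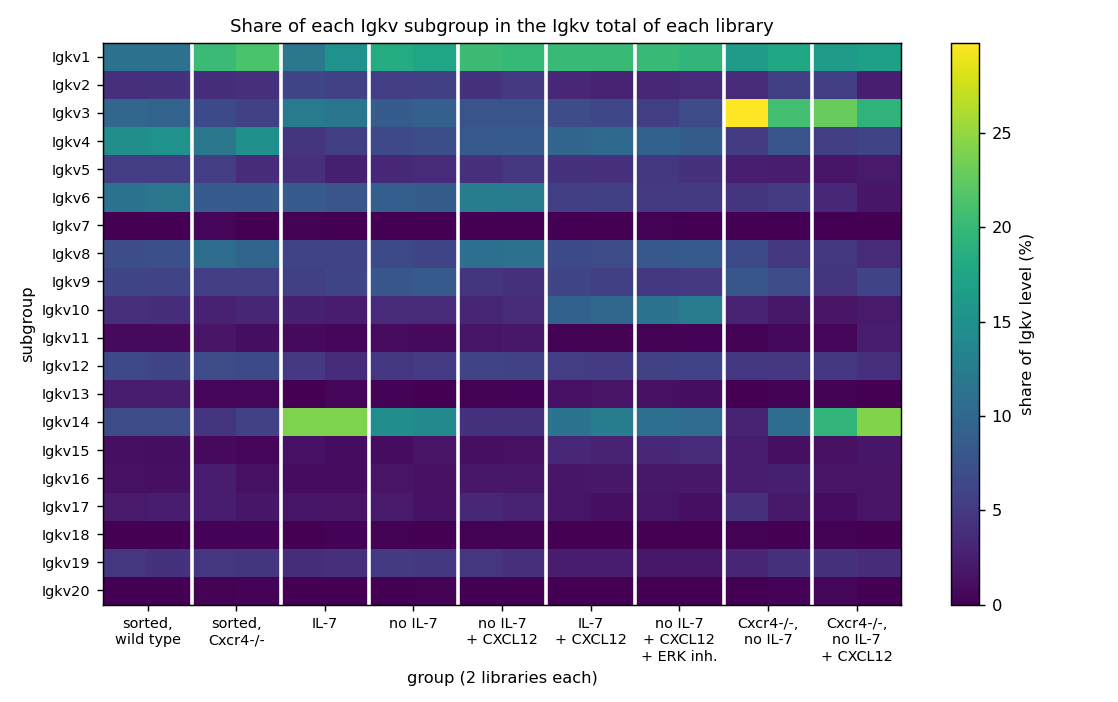
Share of each of 20 Igkv subgroups (rows) in the Igkv total (%) of each library (columns, 2 per group, parted by white lines). The Igkv14 row is bright with IL-7 (24.1% in both libraries) and in the CXCR4-/- cultures with CXCL12, the Igkv3 row in the 4 CXCR4-/- culture libraries, and the Igkv1 row is darkest in sorted wild-type cells (11.3% and 11.1%).

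By RefSeq order the 162 segments were parted into 3 runs of 54. The distal run, farthest from the J segments, extends from Igkv2-137 to Igkv19-93 and holds 29 functional segments. The middle run (Igkv4-92 to Igkv4-53) holds 30, and the proximal run (Igkv4-51 to Igkv3-1) holds 43. Sorted wild-type cells had 41.8% and 41.3% of Igkv counts in the distal, 16.2% and 16.4% in the middle and 42.0% and 42.3% in the proximal run. With IL-7 the distal run had 56.6% and 57.8%, the middle run 7.34% and 10.2% and the proximal run 36.1% and 32.1%. Without IL-7 with CXCL12 the proximal run had 43.3% and 43.0% against 33.3% and 33.2% without IL-7 alone. The middle run gave 220.1 and 218 CPM in sorted wild-type cells. In culture it gave 3.74 and 4.92 CPM with IL-7, 9.72 and 10.1 CPM in its absence, and 24.4 and 25.6 CPM once CXCL12 was added. Between the cultures without IL-7, CXCL12 went with a 2.93-fold higher distal, 2.52-fold higher middle and 4.35-fold higher proximal level. Between the sorted groups the distal level was 5.07-fold, the middle 4.88-fold and the proximal 6.32-fold lower in CXCR4-/- cells, so all runs were lower. In the 4 Gapdh-high libraries the distal run had 56.4% to 57.4% and the proximal 26.9% to 29.3%.

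**Figure D3:**
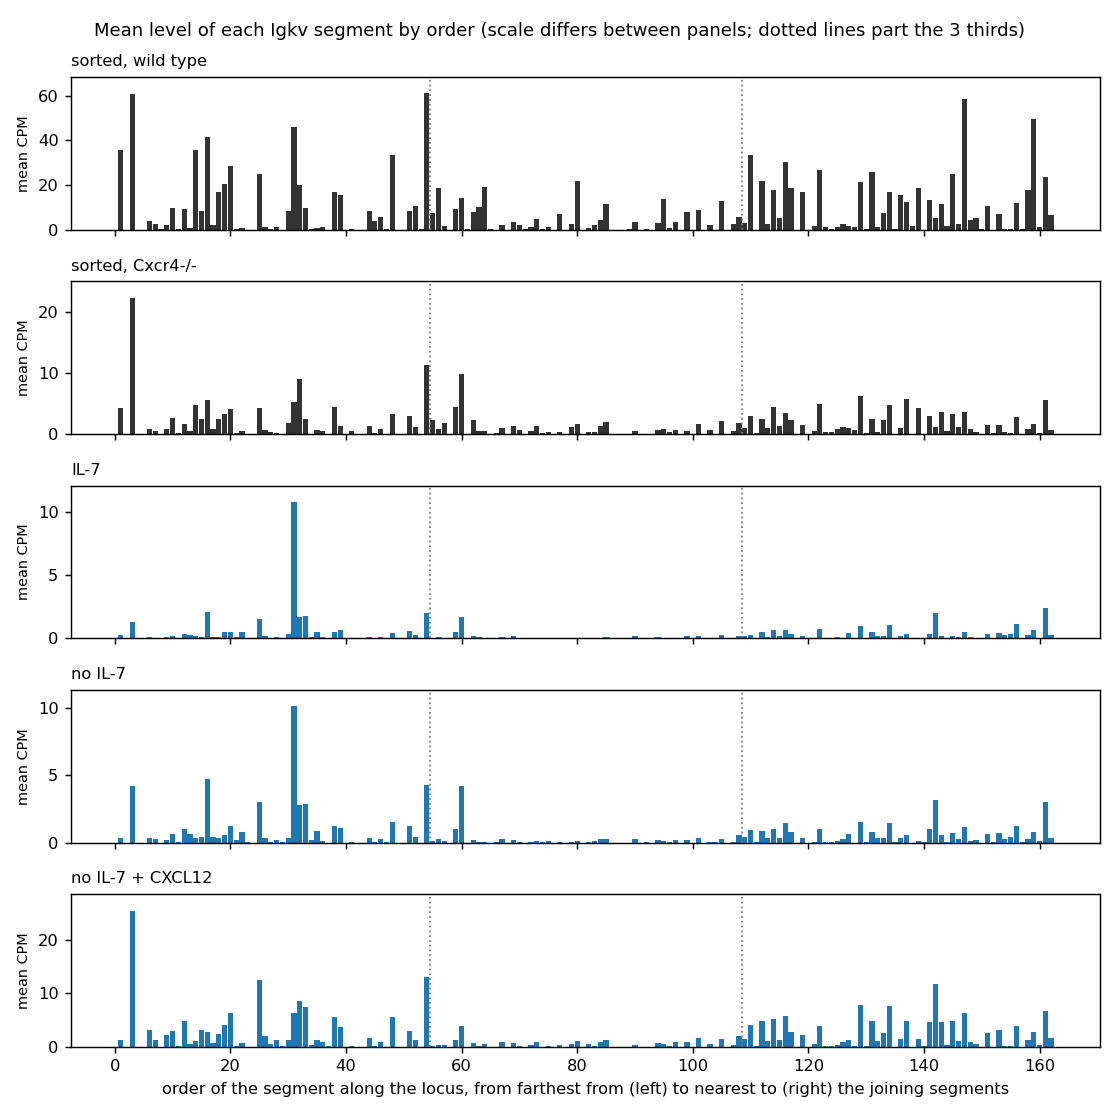
Mean CPM (2 libraries) of each of the 162 segments by order along the locus, in 5 groups; dotted lines part the runs of 54 segments, and the scale of each panel is its own. Sorted wild-type cells use many segments at both ends, the IL-7 panel is led by Igkv14-111 (order 31), and with CXCL12 Igkv1-135 (order 3) leads.

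In the first comparison, sorted CXCR4-/- against sorted wild-type cells, the summed Igkv level was 5.49-fold lower (log2 -2.46), and the fall spread over the family. Of the 118 segments tested, 94 were called lower and 0 higher at an adjusted p under 0.05 in edgeR. Over all 14862 genes tested, 17.6% were called lower and 16.6% higher. At an unadjusted p under 0.05, 100 were lower and 0 higher, and DESeq2 called 89 lower and 0 higher. The median log2 change of the 118 was -2.12, against -0.01 over all genes. Members that passed the filter because they are high in wild-type cells had to differ here. Without the sorted wild-type libraries 7 of the 118 would not have passed.

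Igkv13-84 was at 19.3 and 19.3 CPM in wild-type and 0.394 and 0.580 CPM in CXCR4-/- cells (log2 -5.31 ± 0.43 SE, adjusted p = 3.85e-06). Igkv3-4, with the next largest fall among the better expressed segments, went from 52.2 and 47.5 CPM to 1.67 and 1.63 CPM (log2 -4.91 ± 0.26, adjusted p = 6.83e-08). Igkv4-91 went from 18.6 and 19.0 to 0.697 and 0.906 CPM, and Igkv13-85 from 10.0 and 10.1 to 0.515 and 0.471 CPM (log2 -4.56 ± 0.37 and -4.33 ± 0.34). For each of these the replicates were close. They were picked as the largest called falls, so the distance between the groups follows from that choice. Igkv6-15, from 57.6 and 59.4 to 2.76 and 4.50 CPM, fell by 4.02 on the log2 scale (SE 0.26). The segment first in the sorted CXCR4-/- cells, Igkv1-135, went from 63.9 and 57.6 to 20.8 and 24.0 CPM (log2 -1.44 ± 0.11, adjusted p = 1.40e-06). Igkv19-93 went from 64.2 and 57.9 to 10.1 and 12.7 CPM, and Igkv14-111 from 47.3 and 44.9 to 5.27 and 5.11 CPM. Both fell more than Igkv1-135, by 2.43 and 3.15.

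Igkv1-110 was called less firmly. It was at 19.7 and 20.8 CPM in wild-type cells and at 3.85 and 14.3 CPM in CXCR4-/- cells (log2 -1.16 ± 0.41, adjusted p = 0.044). Without sorted CXCR4-/- replicate 1 its log2 change was -0.51 (adjusted p = 0.0574), without replicate 2 it was -2.39, and without either wild-type library the adjusted p was 0.124 or 0.135. Igkv1-88, named here after its values were seen, was at 14.7 and 13.5 CPM in wild-type and 10.7 and 9.17 CPM in CXCR4-/- cells and was not called (log2 -0.50 ± 0.39, adjusted p = 0.353). By subgroup, Igkv13 was 26.4-fold, Igkv15 11.7-fold and Igkv3 8.54-fold lower, while Igkv1 was 2.93-fold lower. Of the 19 Igkv13 members only 2 passed the filter, Igkv13-84 and Igkv13-85, which were picked above as largest falls. Of the 5 Igkv15 members 1 passed. These folds thus rest on single segments. The low-level subgroups Igkv7 and Igkv18 changed less, being 1.92-fold and 1.57-fold lower. Igkv20 went the other way, with a mean of 0.369 CPM in wild-type and 0.508 CPM in CXCR4-/- cells (1.38-fold higher).

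Heavy chain variable segments (183 Ighv rows) summed to 1402 and 1332 CPM in wild-type and 528 and 587 CPM in CXCR4-/- cells, 2.45-fold lower. The Igkv to Ighv ratio was thus 0.969 and 0.997 against 0.406 and 0.468. The 5 J segments of the kappa locus summed to 242 and 232 against 88.9 and 88.0 CPM, 2.68-fold lower. Of 29 tested genes listed for their part in kappa recombination and germline transcription, 7 fell (24.1%, against 17.6% of all genes) and 5 rose (17.2%, against 16.6%), which is near the background. Foxo1, a transcription factor that drives Rag expression, fell by 0.43 (SE 0.09), and Spib, an Ets factor that binds the kappa enhancers, by 0.38 (SE 0.08). Ccnd3, a cyclin of dividing pre-B cells, rose by 1.24 (SE 0.13). Rag1, named after its values were seen, fell by 1.05 (SE 0.25). Of 4 surrogate light chain genes, which stand in for the light chain before kappa is made, 3 rose, among them Igll1 by 2.22 (SE 0.28) and Vpreb1 by 2.44 (SE 0.39).

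Markers of later B-lineage cells moved with this result. The counts below stand beside 17.6% of all genes called lower and 16.6% called higher. Of 10 small pre-B and B-lineage markers, Vpreb1 and Igll1 among them, 3 rose (30%) and 4 fell (40%). These 10 summed to 9945 to 10361 CPM in wild-type and 6432 to 7891 CPM in CXCR4-/- cells. Of 10 immature and mature B cell markers 9 fell (90%), with none at 0. Their sums were 1482 to 1564 CPM in wild-type and 635 to 756 CPM in CXCR4-/- cells. Of 12 plasma cell markers 8 fell (66.7%), with sums of 2856 to 2900 against 1462 to 1524 CPM and Tnfrsf17 at 0 in the CXCR4-/- libraries. Igj, a plasma cell gene that joins antibody subunits, was at 361 and 334 against 6.36 and 17.1 CPM. Of 9 myeloid markers 2 rose (22.2%, near the share of all genes). Their sums were 4855 to 4913 CPM in wild-type and 6114 and 1071 CPM in CXCR4-/- replicates 1 and 2. Of 8 T and NK cell markers 4 fell (50%), with sums of 23.9 to 25.1 against 10.0 to 24.5 CPM. Of 9 stromal markers 1 fell (11.1%, below the share of all genes), with sums of 41.0 to 41.9 against 10.4 to 26.7 CPM. The part of these cells in the Igkv result was not tested.

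**Figure D4:**
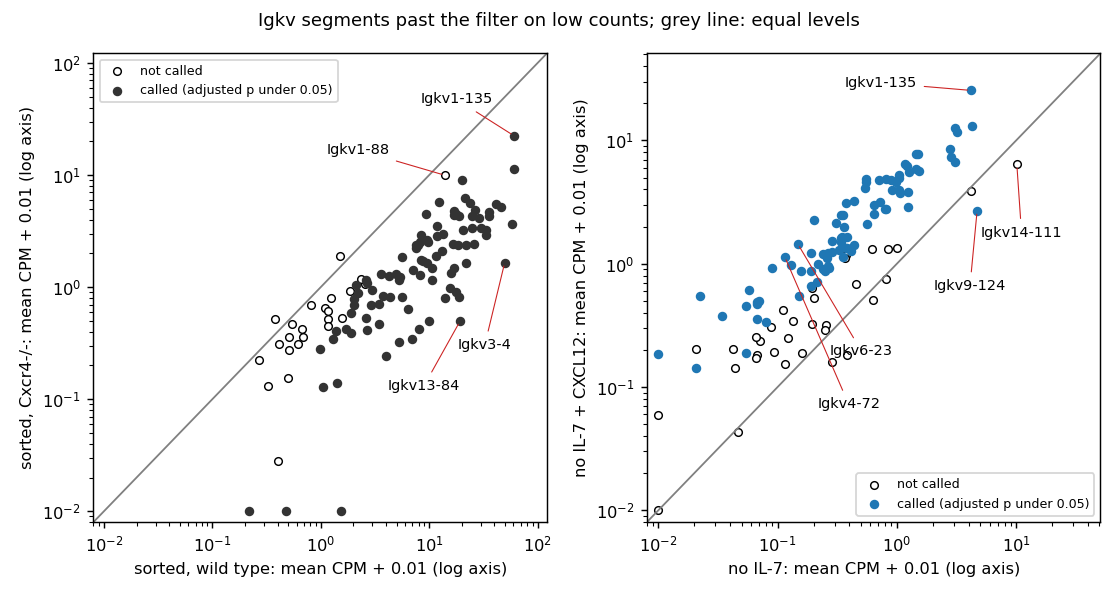
Mean CPM + 0.01 (log axes, 2 libraries each) of the 118 Igkv segments past the filter in sorted CXCR4-/- against wild-type cells (left) and without IL-7 with against without CXCL12 (right); filled points are called at an adjusted p under 0.05 and the grey line marks equal levels. On the left 94 segments lie below the line as called, with Igkv1-88 near it, and on the right 83 lie above it and 1, Igkv9-124, below.

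In culture, the loss of IL-7 was compared first. The summed level was 1.75-fold higher without IL-7 (log2 0.81). Of 118 segments, 22 were called higher and 0 lower, against 5.60% higher and 6.23% lower of all genes. At an unadjusted p under 0.05 it was 52 and 0, DESeq2 called 29 and 0, and the median log2 change was 0.90 against 0.05 over all genes. Without IL-7 replicate 1 or 2 the count was 9 or 12, and without replicate 1 or 2 of the cultures lacking IL-7 it was 9 or 11.

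Igkv1-135 went from 1.23 and 1.38 CPM with IL-7 to 4.22 and 4.13 CPM without it (log2 1.67 ± 0.13, adjusted p = 1.38e-05). The largest rises by the naming rule were Igkv9-129, from 0.132 and 0.194 to 0.606 and 0.659 CPM (log2 1.93 ± 0.32), and Igkv6-17, from 0.132 and 0.237 to 0.736 and 0.659 CPM (log2 1.90 ± 0.36). Igkv1-122, from 0.110 and 0.0647 to 0.347 and 0.317 CPM, and Igkv4-50, from 0.308 and 0.194 to 0.910 and 0.903 CPM, were next (log2 1.89 ± 0.54 and 1.84 ± 0.26). With IL-7, Igkv9-129, Igkv6-17, Igkv1-122 and Igkv4-50 had only 3 to 14 counts per library. In each of the 5 the groups did not overlap, but all 5 were called as rises here, so this adds no support. The calls of Igkv1-122 and Igkv6-17 were lost without IL-7 replicate 1 or without replicate 1 of the cultures lacking IL-7, and that of Igkv1-122 also without either replicate 2 and without the 4 Gapdh-high libraries (in 7 of 13 alternatives in all). Igkv14-111 stood apart, at 11.2 and 10.3 CPM with and 10.5 and 9.76 CPM without IL-7 (log2 -0.09 ± 0.33, adjusted p = 0.910). Leaving Igkv14-111 out, the sum was 39.6 and 38.1 CPM with and 76.2 and 77.2 CPM without IL-7, 1.97-fold higher.

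Ighv segments were 1.35-fold and kappa J segments 1.80-fold higher without IL-7. Of the 29 kappa recombination genes 7 (24.1%, against 5.60% of all genes) rose. They included Rag2, by 1.16 (SE 0.08), Rag1, by 1.05 (SE 0.25), and Irf4, a transcription factor that binds the kappa enhancers, by 0.73 (SE 0.10). Stromal markers (0 of 9 called in edgeR, 5 higher at an unadjusted p under 0.05, none at 0) summed to 328 and 614 CPM with and 822 and 814 CPM without IL-7. Myeloid markers (0 of 9 called in edgeR and 0 at an unadjusted p under 0.05, none at 0) summed to 148 to 197 against 269.5 to 271 CPM. Immature and mature B cell markers summed to 458 to 497 against 582 to 591 CPM, and 2 of 10 rose. Of 10 small pre-B and B-lineage markers 3 rose (30%), Rag1 and Rag2 among them. The small pre-B marker Il2ra fell, by 0.33 (SE 0.10), as 1 of the 10 (10%, against 6.23% of all genes). Their part in the result was not tested.

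Adding CXCL12 in the absence of IL-7 went with a 3.36-fold higher summed level (log2 1.75). Of 118 segments, 83 were called higher and 1 lower, against 17.3% higher and 13.2% lower of all genes, and the median log2 change was 2.04 against 0.09. The numbers at an unadjusted p under 0.05 were 93 and 1. Of all groups these 2 had the closest replicates, with a chi-square per degree of freedom over all genes of 1.47 without and 1.34 with CXCL12. Whether that closeness is technical is not known, and the counts and p-values here depend on it. Fewer segments were called with these pairs summed, as given at the end. The comparison uses the same libraries without IL-7 as the one before, so the changes of a segment in the 2 comparisons are not independent.

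Igkv1-135 went from 4.22 and 4.13 to 25.0 and 25.9 CPM (log2 2.61 ± 0.12, adjusted p = 5.31e-08). Igkv4-72 went from 0.0866 and 0.122 to 1.22 and 1.05 CPM (log2 3.43 ± 0.49) and Igkv6-23 from 0.152 and 0.122 to 1.35 and 1.54 CPM (log2 3.35 ± 0.35). Igkv8-24 went from 0.585 and 0.488 to 4.88 and 4.79 CPM, and Igkv8-19 from 0.476 and 0.610 to 4.04 and 5.17 CPM (log2 3.16 ± 0.33 and 3.07 ± 0.34). These 4 rose most among the segments with a mean log2 CPM not below 0. Without CXCL12 Igkv4-72 had 4 and 5 counts and Igkv6-23 had 7 and 5, so the sizes of their rises are imprecise. They were picked for that, so the lack of overlap between their groups adds no support. Among abundant segments, Igkv1-117 rose from 3.10 and 2.98 to 12.2 and 12.9 CPM, Igkv19-93 from 4.35 and 4.22 to 13.5 and 12.4 CPM and Igkv6-15 from 0.866 and 1.46 to 6.12 and 6.66 CPM.

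Igkv9-124 went the other way, from 4.66 and 4.74 to 2.73 and 2.64 CPM (log2 -0.80 ± 0.19, adjusted p = 0.00701). Without replicate 1 of the CXCL12 cultures its adjusted p was 0.0561. The levels of Igkv14-111 did not overlap either, at 10.5 and 9.76 CPM without and 6.36 and 6.38 CPM with CXCL12, but it was not called (log2 -0.67 ± 0.35, adjusted p = 0.164). Igkv1-88 was at 4.31 and 4.03 against 4.17 and 3.58 CPM (log2 -0.10 ± 0.40). Without Igkv14-111 the sum was 3.72-fold higher with CXCL12. By subgroup, Igkv11 was 7.02-fold, Igkv17 5.81-fold and Igkv8 5.77-fold higher, while Igkv9 was 1.81-fold and Igkv14 1.01-fold. The Igkv14 value joins opposite changes. Igkv14-111 made up 82.2% and 80% of that subgroup without CXCL12. Its other members summed to 2.27 and 2.44 CPM without and 6.08 and 6.49 CPM with CXCL12.

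Ighv segments were 1.76-fold higher and kappa J segments 3.52-fold higher, at 83.1 and 78.2 against 22.5 and 23.3 CPM. The Igkv to Ighv ratio was 0.649 and 0.642 without and 1.22 and 1.23 with CXCL12. Of the 29 kappa recombination genes 11 rose (37.9%, against 17.3% of all genes) and 7 fell (24.1%, against 13.2%). The rises included Brwd1, a chromatin reader that opens the kappa locus for recombination, by 1.28 (SE 0.10), Irf4 by 0.95 (SE 0.10) and Spib by 0.88 (SE 0.08). Ccnd3 fell by 1.30 (SE 0.13) and Rad21, a cohesin subunit, by 1.05 (SE 0.14). Vpreb2 and Igll1 of the surrogate light chain fell, by 2.98 and 1.35.

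Markers of other cells are set here beside all genes, of which 17.3% rose and 13.2% fell. Stromal markers summed to 814 to 822 CPM without and 1820.5 to 1835 CPM with CXCL12, none at 0. Of these 4 of 9 rose (44.4%), and 7 at an unadjusted p under 0.05. Myeloid markers summed to 269.5 to 271 against 673 to 677 CPM, none at 0. Of these 1 of 9 rose (11.1%, below the share of all genes), and 8 at an unadjusted p under 0.05. Immature and mature B cell markers summed to 582 to 591 against 847 to 865 CPM (5 of 10 rose, 50%, none at 0). Plasma cell markers summed to 915 to 918 against 1165 to 1199 CPM (3 of 12 rose, 25%, and 2 fell, 16.7%). Of these, Ighg1 was at 0 in replicate 2 without CXCL12 and Ighg2c at 0 in replicate 2 with it. Their part in the result was not tested.

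Set against cultures with IL-7, those without IL-7 with CXCL12 had a 5.87-fold higher sum (log2 2.55). Of 118 segments 99 were called higher and 0 lower, against 29.8% and 21.5% of all genes, and the median log2 change was 3.09 against 0.12. Unadjusted, 102 were higher and 1 lower, and DESeq2 called 98 higher and 1 lower. Igkv1-135 was at 1.23 and 1.38 against 25.0 and 25.9 CPM (log2 4.28 ± 0.13, adjusted p = 1.09e-09). Igkv1-122 went from 0.110 and 0.0647 to 2.37 and 2.53 CPM, Igkv11-125 from 0.154 and 0.0862 to 3.19 and 3.25 CPM and Igkv6-17 from 0.132 and 0.237 to 4.57 and 5.01 CPM, with log2 changes of 4.75, 4.71 and 4.66. With IL-7 they had 5 and 3, 7 and 4, and 6 and 11 counts, so these sizes are imprecise. Igkv6-23 had 3 counts over both IL-7 libraries and 89 over both CXCL12 libraries. Its ratio was 43.1, with an exact 95% interval of 14.3 to 213 that covers counting error alone. Igkv14-111 (log2 -0.75 ± 0.35, adjusted p = 0.0858) and Igkv9-124 (log2 0.37 ± 0.19, adjusted p = 0.127) were not called. Beside this, 9 of 9 myeloid markers rose, with sums of 148 to 197 CPM with IL-7 and 673 to 677 CPM without it with CXCL12, and 8 of 9 stromal markers rose, from 328 to 614 CPM to 1820.5 to 1835 CPM. Of 10 immature and mature B cell markers 6 rose, and of 12 plasma cell markers 5 rose and 3 fell. Their part in the result was not tested.

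**Figure D5:**
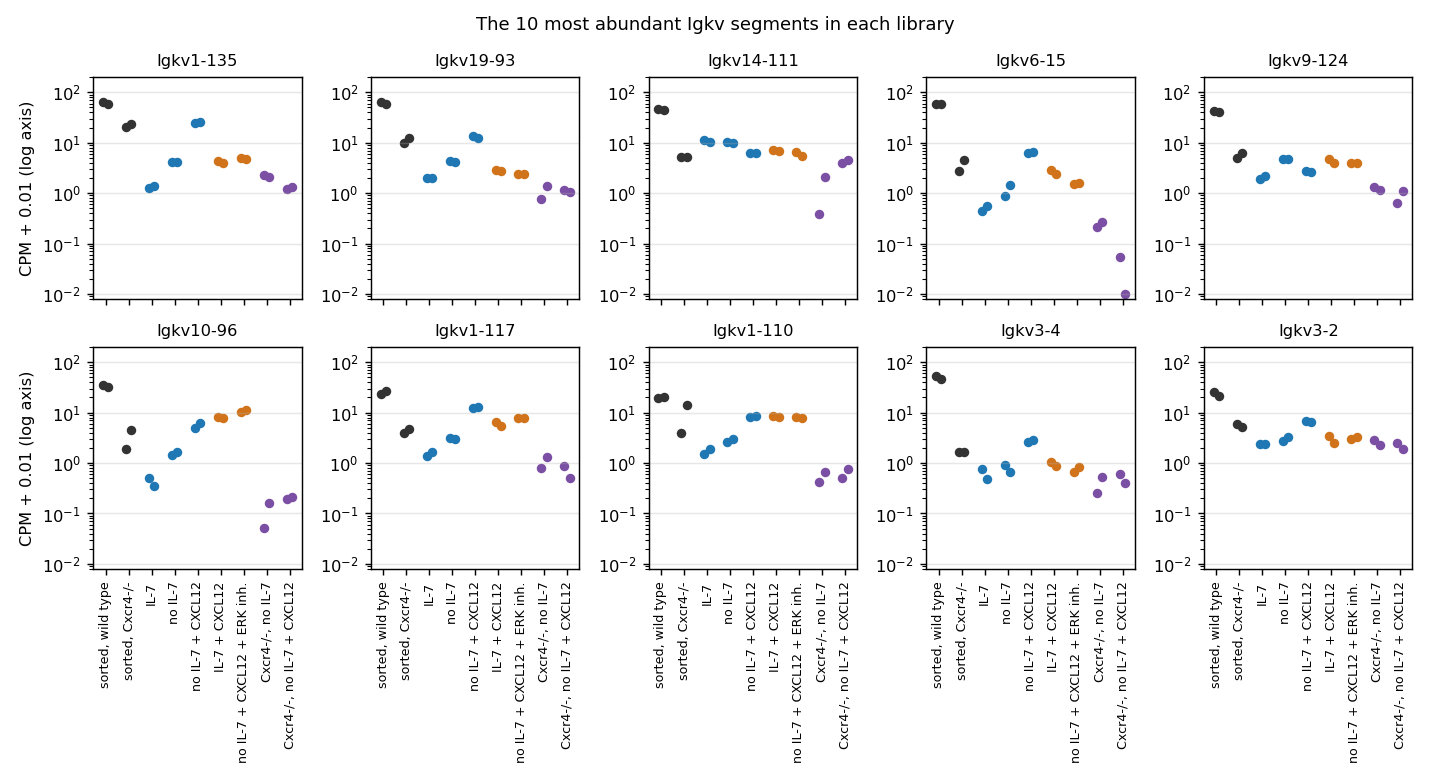
CPM + 0.01 (log axes) of the 10 segments with the largest mean over the 9 groups, with 2 points per group for its libraries and the colours of the plot of summed levels. In 8 of the 10 panels the mean rises from IL-7 over no IL-7 to no IL-7 with CXCL12 (blue), while Igkv14-111 goes from 11.2 and 10.3 over 10.5 and 9.76 to 6.36 and 6.38 CPM.

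Within the 4 Gapdh-high libraries, cultures with CXCL12 and the ERK inhibitor without IL-7 were set against cultures with IL-7 and CXCL12. They differ in IL-7 and in the inhibitor, whose effects cannot be told apart. The sum was 1.07-fold as high (log2 0.10), with both levels within 111 and 125 CPM. Of 118 segments 2 were called higher and 0 lower, against 6.50% and 4.54% of all genes. This count depends on the fit: with only the groups compared, 16 were called higher and 5 lower. Unadjusted, 12 were higher and 8 lower, and DESeq2 called 4 higher and 0 lower. Igkv6-25 went from 0.138 and 0.149 to 0.374 and 0.773 CPM (log2 1.98 ± 0.45, adjusted p = 0.0157) and Igkv12-41 from 0.573 and 0.574 to 0.945 and 1.505 CPM (log2 1.09 ± 0.28, adjusted p = 0.0266). Both calls were lost, leaving 0, without either library with IL-7 and CXCL12 or without ERK inhibitor replicate 2. Usage overlapped by 85.7% to 87.3% between the groups, against 91.7% and 92.8% between their replicates. Rag2 and Rag1 rose in this comparison by 1.14 (SE 0.08) and 1.19 (SE 0.25), while the kappa J sum was 17.0 and 18.4 CPM in inhibitor cultures, below the 25.2 and 24.1 CPM of the others. Other markers moved too, with IL-7 and CXCL12 against the inhibitor: stromal sums were 13.8 to 14.4 against 49.5 to 52.2 CPM (6 of 9 rose), and myeloid sums were 1660 to 1795 against 3229 to 3295 CPM (3 of 9 rose). Immature and mature B cell sums were 371 to 391 against 258 to 260 CPM (3 of 10 fell). Plasma cell sums were 1052 to 1109 against 972 to 994 CPM (2 of 12 rose and 1 fell). Sdc1 and Prdm1 rose by 1.05 and 1.06, and Xbp1 fell by 0.78. Igha, a plasma cell marker named after its values were seen, was at 75.8 and 66.9 against 102 and 110 CPM and was not called. With IL-7 alone Igha was at 0.725 and 1.19 CPM. None of these markers was at 0, and their part in the result was not tested.

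In the CXCR4-/- cultures CXCL12 left the sum within its replicate spread (log2 -0.04, against an SD of 0.35 between replicates on that scale). Of 118 segments 3 were called higher and 4 lower, against 12.8% and 21.0% of all genes. These shares differ in depth. Only 34 Igkv rows without and 31 with CXCL12 had at least 10 counts over the 2 libraries, against 12270 and 12208 of all genes. Few segments could thus be called, and the low number is no result about them. At an unadjusted p under 0.05 it was 7 and 9. Igkv14-111 went from 0.371 and 2.10 to 3.93 and 4.56 CPM (log2 1.84 ± 0.43, adjusted p = 0.0218), and Igkv1-135 from 2.27 and 2.10 to 1.22 and 1.30 CPM (log2 -0.80 ± 0.15, adjusted p = 0.0218).

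Other named calls rested on few counts over 2 libraries. Igkv12-46 had 2 counts without and 11 with CXCL12, a ratio of 5.72 (exact 95% interval 1.25 to 53.1), and its call was lost in 9 of 13 alternatives, DESeq2 among them. Igkv17-127 had 17 and 3, a ratio of 0.183 (0.0345 to 0.634), and Igkv6-15 had 10 and 1, a ratio of 0.104 (0.0024 to 0.731). Igkv6-23 had 5 counts without and 0 with CXCL12, and was at least 1.60-fold lower if the 3 counts that a 0 allows are taken over the group. Its counting interval extends above equal levels, to 1.13. The number called was 1 or 11 without replicate 1 or 2 of the cultures lacking CXCL12, and 0 without either library with CXCL12 or with only the groups compared. Ighv segments were at 8.71 and 68.1 CPM without CXCL12 and 62.4 and 65.0 CPM with it, so replicate 1 stood apart there too. Of the 4 surrogate light chain genes 4 fell, with sums of 6069 and 2531 CPM without and 2166 and 1924 CPM with CXCL12. Of 10 small pre-B and B-lineage markers, Vpreb1 and Igll1 among them, 1 rose (10%, against 12.8% of all genes) and 3 fell (30%, against 21.0%). These 10 summed to 8647 and 5292 CPM without and 4870 and 4522 CPM with CXCL12. Myeloid markers (11.4 to 17.3 CPM) and stromal markers (0.330 to 1.96 CPM) were low in these 4 libraries.

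The difference between the CXCL12 responses of the cultures with and without the deletion label was tested as an interaction. Of 118 segments 38 had a higher response in the cultures without that label and 1 a lower one, against 13.1% and 12.1% of all genes, with a median of 2.43 against 0.14. At an unadjusted p under 0.05 it was 49 and 3. The median and the calls include segments with few or 0 counts in the CXCR4-/- cultures. For those the fitted difference is no measure of size. Igkv1-99, named after its values were seen, was called at 6.72. In the CXCR4-/- cultures Igkv1-99 had 3 and 1 counts without CXCL12 and 0 in both libraries with it. The count of 39 was 24 without replicate 1 of the CXCR4-/- cultures with CXCL12 and 15 with only the groups compared.

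For Igkv1-135 the log2 change was 2.61 in one and -0.80 in the other, a difference of 3.40 ± 0.19 (adjusted p = 9.28e-07). Igkv1-117 (2.60 ± 0.38), Igkv19-93 (1.53 ± 0.32) and Igkv3-2 (1.38 ± 0.30) also had a higher response in the cultures without the deletion label. In a fit of only the groups compared the calls of Igkv19-93, Igkv3-2 and Igkv14-111 were lost, at adjusted p = 0.0714, 0.0576 and 0.0993. Among segments with a mean log2 CPM not below 0, the 4 largest fitted differences were those of Igkv6-23 (8.34), Igkv6-15 (5.54), Igkv17-127 (4.62) and Igkv6-17 (4.23). They rest on 0 to 17 counts in a CXCR4-/- group and are no measure of size, and that of Igkv6-17, with 6 and 2 counts, ran from 3.35 to 8.06 over the alternatives. Igkv14-111 had the lower response, at -2.51 ± 0.56 (adjusted p = 0.00717), its level being lower with CXCL12 in one pair of groups and higher in the other. Of the 29 kappa recombination genes 9 (31.0%, against 13.1% of all genes) had a higher response and 5 (17.2%, against 12.1%) a lower one. The cultures with and without the label differ at the outset, at 28.0 and 86.8 CPM of Igkv, and in stromal and myeloid markers as given above. The part of those differences, and of the labelled cell stage, was not tested.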

How the data were processed

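RNA-seq was measured in 18 libraries; 8 ATAC-seq libraries were not used here. The values are raw counts of reads per gene symbol as deposited by the authors in 1 table of 23762 rows, with 0 columns of no sample. Per the labels' protocols, messenger RNA of flow-sorted B cells was selected with oligo-dT and put into a stranded kit. The tools named per the submitters' processing notes are MACS2, bedtools, featureCounts, Picard, BWA and STAR, with mm9 as the build. Their versions and roles, the annotation, the strand setting and the treatment of reads that map to several places are not given in the sources used here. Igkv segments of a subgroup can be alike in sequence, so counts of single segments are uncertain where reads could be split or dropped.

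All 162 symbols matched a RefSeq table of GRCm38.p6, used for chromosome, class and order and not for coordinates. The constant gene of the locus is not reported. Counts were fitted with edgeR 4.0.16 (R 4.3.3): TMM scaling, the default filter on low counts (14862 genes kept), the robust quasi-likelihood test, all 18 libraries, 1 mean per group. Calls were made at an adjusted p (Benjamini-Hochberg, over all genes of a comparison) under 0.05. The SE is the log2 change over the square root of F. The test was tried on counts simulated with the same spread in all groups, so the trial does not cover the unequal spread of these groups. There were 7 comparisons. The named segments are the 10 most abundant, the 4 largest rises and falls called in each comparison with a mean log2 CPM not below 0, and the 2 most abundant of each group; of listed genes, those called with the smallest p. Sums, shares and runs of the locus are descriptions. Members and lists were chosen with earlier results of these data known. Counting intervals cover counting error alone. Replicate numbers in the labels name no shared animal, batch or day. Alternatives covered scaling, filters, a replicate block, DESeq2 1.42.0, left-out libraries and segments, and summing replicate pairs that were close. Promoter motifs were not searched, since no Igkv promoter was at hand.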

Additional observations from a re-analysis of the deposited data

Results flagged for a closer look

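The response to CXCL12 without IL-7 differed between cultures without the deletion label and CXCR4-/- cultures, by an interaction term in edgeR, for 39 of 118 Igkv segments tested, 38 with a higher and 1 with a lower response in the former, against 13.1% and 12.1% of all genes. The count was 15 with only the groups compared and 17 with close replicate pairs summed. Among the named ones, the difference in log2 change (cultures without the label minus CXCR4-/- cultures) was 8.34 for Igkv6-23, 5.54 for Igkv6-15, 4.62 for Igkv17-127 and 4.23 for Igkv6-17. The CXCR4-/- groups had 0 to 17 counts of these 4 segments, so the fitted sizes are imprecise. Some of the other segments called also had few counts there. For Igkv14-111 the difference was -2.51. In that segment replicate 1 of the CXCR4-/- cultures without CXCL12 had 9 counts and replicate 2 had 41.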

How the results depend on the processing

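Of 54 alternative values of the summed ratios 51 moved by less than the replicate spread, and of 1458 for named segments 1332 kept direction and call, 126 lost the call and 0 turned. Of 95 counts of called segments 70 stayed within 1.5 times. Without the most abundant segment the summed log2 ratio was 1.69 for CXCL12 against none and 2.46 against IL-7, and with total counts unscaled it was 0.18 for the ERK inhibitor. For IL-7 loss the count of 22 was 13 without the 4 Gapdh-high libraries, 38 with only the groups compared, 6 with close replicate pairs summed and 9 to 12 leaving out 1 library. With close pairs summed (chosen after seeing the data) it was 42 for CXCL12 against none, 1 for the ERK inhibitor, 0 for the CXCR4-/- cultures and 17 for the interaction. For the ERK inhibitor it was 4 at 1 CPM or more in 2 libraries, 21 with only the groups compared, 4 with DESeq2 and 0 to 2 leaving out 1 library. For the CXCR4-/- cultures it was 0 without the Gapdh-high libraries, 0 with only the groups compared and 0 to 11 leaving out 1 library. For the interaction it was 15 with only the groups compared and 24 to 34 leaving out 1 library. A group left with 1 library is assumed to vary like the others.

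Replicates share only a number: differences between replicates correlated at -0.22 to 0.52 between the groups compared. With a replicate block the counts were 92, 20, 81, 99, 2, 7 and 38 in the order of the report, which is within 1.5 times of those without it. Among the named segments it ended the calls of Igkv1-122 and Igkv8-19 for IL-7 loss and of Igkv12-46 in the CXCR4-/- cultures, at adjusted p = 0.0544, 0.0548 and 0.0557 in edgeR. Depth limits the CXCR4-/- cultures most, with 556 to 638 Igkv counts per library.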
